A study of Rattus norvegicus with 141 samples.

Results

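The 39 HOX genes of the rat, among 30562 genes in the count tables, were followed in 3 organs of the digestive tract. They were taken by name alone, as every gene called Hox with a cluster letter from a to d and a number. The tables held 11 Hoxa genes on chromosome 4, 10 Hoxb genes on chromosome 10, 9 Hoxc genes on chromosome 7 and 9 Hoxd genes on chromosome 3, and in each cluster the genes lay in the order of their numbers. The rats were Sprague-Dawley adults without a genetic change, male and female, kept on standard chow and given microplastics or vehicle. The labels give a high dose of 50 mg/kg, a low dose of 5 mg/kg and a vehicle control, but neither the polymer nor the length of exposure. Polyadenylated RNA was sequenced from 47 duodenum, 48 stomach and 46 liver libraries, 141 in all, in 18 groups of tissue, sex and dose. Each group held 8 libraries, except for 7 from duodenum of female controls and 6 from liver of high-dose females.

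HOX genes encode homeodomain transcription factors that give cells an address along the head-to-tail axis of the embryo. Within a cluster the low-numbered genes are switched on earliest and farthest forward, and the high-numbered genes later and farther back. Much of this pattern is kept in adult organs, in the gut mainly in the muscle and connective tissue around the epithelium, where the foregut carries low and middle numbers and the hindgut the highest. Here numbers 1 to 3 are called anterior, 4 to 8 central and 9 to 13 posterior.

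Promoter sequences from RefSeq (build GRCr8) were held for 20 of the 39 genes, as 21 entries. 4 of them are printed: Hoxc4 separates stomach from duodenum, Hoxa7 and Hoxa9 stand above all other duodenum libraries in 1 unusual library, and Hoxa4, of the same cluster, does not. Each run is the 250 bases before the annotated start, 5′ to 3′ on the gene's strand. Capitals mark a match to the core letters bound by CDX factors, TTTATNG or its reverse complement CNATAAA.
Hoxa4, chr4:82622303-82622552, minus strand: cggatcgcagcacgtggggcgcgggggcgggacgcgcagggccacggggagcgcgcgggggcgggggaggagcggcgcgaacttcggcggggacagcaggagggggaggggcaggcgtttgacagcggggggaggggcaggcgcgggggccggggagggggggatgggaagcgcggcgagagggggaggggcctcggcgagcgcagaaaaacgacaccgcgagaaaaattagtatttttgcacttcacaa
Hoxa7, chr4:82648242-82648491, minus strand: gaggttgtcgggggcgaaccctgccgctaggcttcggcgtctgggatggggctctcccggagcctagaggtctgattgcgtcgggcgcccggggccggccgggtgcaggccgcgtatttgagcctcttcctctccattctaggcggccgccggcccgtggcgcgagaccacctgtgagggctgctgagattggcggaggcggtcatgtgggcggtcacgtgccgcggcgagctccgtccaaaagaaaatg
Hoxa9, chr4:82657049-82657298, minus strand: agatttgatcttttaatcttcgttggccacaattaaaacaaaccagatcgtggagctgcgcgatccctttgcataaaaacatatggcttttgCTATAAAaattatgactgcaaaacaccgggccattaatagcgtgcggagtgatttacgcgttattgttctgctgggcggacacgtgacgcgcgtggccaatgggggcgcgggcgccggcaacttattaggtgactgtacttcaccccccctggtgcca
Hoxc4, chr7:136048809-136049058, plus strand: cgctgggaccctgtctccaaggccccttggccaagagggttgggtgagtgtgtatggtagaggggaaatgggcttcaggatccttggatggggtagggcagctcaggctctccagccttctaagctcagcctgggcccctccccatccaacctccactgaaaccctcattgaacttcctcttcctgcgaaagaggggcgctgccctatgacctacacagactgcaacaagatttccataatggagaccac
The TTTATNG letters stood in the promoters of Hoxa9 and Hoxa10 and in 10.1% of all 33469 promoters of the table, counting both strands. Some matches, such as the one in Hoxa9, contain the letters TATAAA of a TATA box. A composite of PBX and HOX proteins, TGATTNAT on either strand, was matched in Hoxa2 and Hoxd11 and in 2.82% of all promoters. The HOX entries were all of Hoxa or Hoxd genes except for Hoxb1 and Hoxc4. They had a median GC content of 60.0% and 20 CpG pairs over the 250 bases of each entry, against 51.2% and 5 for all promoters. The Hoxc4 sequence printed above had 3 CpG pairs, Hoxb1 and Hoxa2 had 6 each, and Hoxa4 had 32.

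Library totals were 5470039 to 25503801 counts in duodenum, 4947825 to 23940175 in stomach and 6153368 to 23716967 in liver. Levels are given as CPM, counts scaled to a common library size with TMM factors, and, since no gene lengths were used, a level is compared only with that of the same gene elsewhere. The tissues fitted their labels: the summed glandular stomach markers had a median of 95100 CPM in stomach and 5.97 CPM in duodenum, and the hepatocyte markers 183000 CPM in liver. An exception is library D_01, labelled as duodenum of a male control, in which Pdx1 had no count; it is described apart and left out of every other duodenum value. Stomach pieces also held squamous epithelium, the lining of the rat forestomach, with 385 to 3320 CPM in the summed markers. In duodenum the summed pancreatic acinar markers ran from 0.148 to 34900 CPM. The labels do not say whether the libraries of a group came from separate animals, so p-values measure the spread between these libraries, and in bulk pieces fewer cells of a type cannot be told apart from less RNA per cell.

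The 3 organs differed in how much of the HOX code they expressed and in the share of each cluster. The summed level of the 39 genes had a median of 30.2 CPM in duodenum (19.9 to 56.0), 75.1 CPM in stomach (50.3 to 136) and 11.3 CPM in liver (5.57 to 17.2). Median levels were above 1 CPM for 9 genes in duodenum, 16 in stomach and 5 in liver. Hoxb genes made up a median of 50.2% of the HOX sum in duodenum, 36.8% in stomach and 63.8% in liver. The Hoxc share was 11.2% in duodenum, 36.4% in stomach and 1.71% in liver, so stomach drew on this cluster most. Posterior genes gave 0.713% of the sum in duodenum, 0.718% in stomach and 0.781% in liver. Central genes had median shares of 60.2%, 73.4% and 54.7% in duodenum, stomach and liver. With 8 anterior, 15 central and 16 posterior genes and no gene lengths, these shares compare organs and do not rank classes or clusters within an organ.

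**Figure D1:**
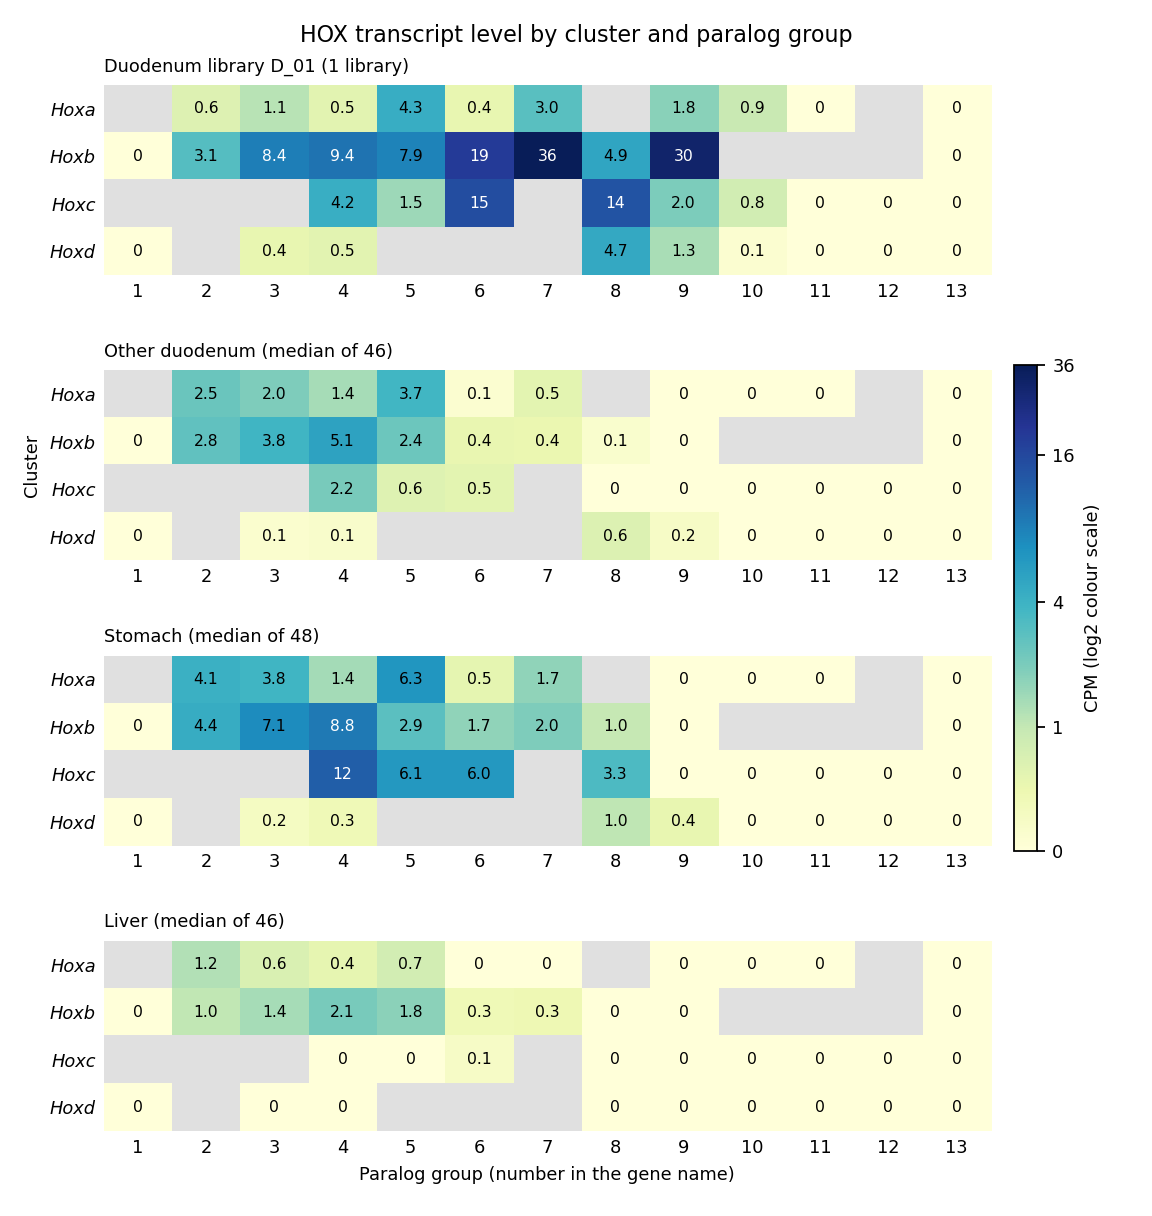
Level of each HOX gene (CPM, colour on a log2 scale, values printed) by cluster and paralog number, in D_01, the other duodenum libraries, stomach and liver, as medians except for D_01; grey cells are numbers a cluster lacks or that are not shown. D_01 has 19 genes above 1 CPM, the other duodenum libraries 9, stomach 16 and liver 5.

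At the anterior end of the clusters, Hoxb1 had 1 count in the duodenum libraries and none in stomach or liver. Hoxd1 had 4 counts in duodenum, 6 in stomach and 0 in liver. At the posterior end, Hoxa11, Hoxa13, Hoxb13, Hoxc11, Hoxc13, Hoxd11, Hoxd12 and Hoxd13 had at most 4 counts in all libraries of any organ, and Hoxc12 had none. Hoxa13 and Hoxd13, which pattern the hindgut and the limb ends, are among them. Hoxd9 was the posterior gene with a count in every stomach library, at a median of 0.430 CPM, against 0.152 CPM in duodenum. Hoxa10 had 21 counts over 15 liver libraries, against 5 counts in duodenum and 6 in stomach. Hoxd10 had 35 counts and Hoxa9 20 counts in stomach, Hoxc9 had 23 counts in duodenum, and each had fewer in the other organs outside D_01. Of the remaining Hoxd genes, Hoxd3 had medians of 0.0802 CPM in duodenum, 0.184 CPM in stomach and 0 in liver, and Hoxd4 had 0.109, 0.287 and 0 CPM in the same organs.

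Duodenum carried less HOX transcript than stomach in vehicle controls (14 and 16 libraries), and the gap was wide for Hoxc genes and for Hoxa and Hoxb genes numbered 6 to 8, and narrow or absent for lower numbers. Of the 18 HOX genes that passed the count filter, 15 were lower in duodenum at an adjusted p under 0.05 and 0 were higher. In duodenum alone 13 passed the filter. Hoxa6, Hoxb6, Hoxb7, Hoxb8 and Hoxc8 entered through another organ, so the count of 15 and the median that follows are partly set by the filter. Among all 16983 genes tested, 36.2% were lower and 41.4% higher, 77.7% in all. The median log2 difference was −1.33 over the HOX genes and 0.08 over all genes, and it was still −1.33 with Hoxc8 set at its bound. At an unadjusted p under 0.05, 16 HOX genes were counted, as were 13360 of all 16983 genes. With a batch term within each tissue Hoxb3, Hoxb4 and Hoxd8 lost their call. In that fit the difference was taken at the level of batch 3, with 7 duodenum and 8 stomach libraries, and not averaged over batches.

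Hoxc4, which is needed in mice for a normal esophagus and cervical spine, had 1.64 to 3.22 CPM in duodenum (median 2.09) and 6.07 to 22.9 CPM in stomach (median 10.7). Hoxc5 had 0.297 to 1.65 CPM in duodenum (median 0.528) and 3.03 to 12.4 CPM in stomach (median 5.93). Hoxc6, a marker of forelimb-level motor neurons in mouse and chick, had 0.329 to 1.1 CPM in duodenum (median 0.646) and 2.56 to 13.3 CPM in stomach (median 5.49). In these genes the lowest stomach library lay above the highest duodenum library. The log2 differences were −2.42 ± 0.15 for Hoxc4, −3.15 ± 0.20 for Hoxc5 and −3.16 ± 0.26 for Hoxc6 (± SE here and below). Hoxc8, a gene of thoracic identity, had no count in the duodenum controls and 1.04 to 9.61 CPM in the stomach controls (median 2.96, 638 counts). With the floor of 3 counts over the group it was at least 204-fold lower in duodenum.

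The central Hoxb genes followed. Hoxb7 had 0 to 0.541 CPM in duodenum (median 0.347) and 0.569 to 5.88 CPM in stomach (median 1.86), again without overlap, and differed by −2.85 ± 0.29. These 5 genes were the HOX genes whose lowest stomach control exceeded every duodenum control, and 14.2% of 16992 genes separated in that direction. Hoxb8, which acts in myeloid progenitors and in spinal circuits of mice, had 0 to 0.206 CPM in duodenum (median 0.0791) and 0.105 to 1.87 CPM in stomach (median 0.683). Its ranges overlapped between 0.105 and 0.206 CPM, and it differed by −3.37 ± 0.37. Hoxb6 had a median of 0.428 CPM in duodenum and 1.5 CPM in stomach, a difference of −1.78 ± 0.22.

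Toward the front of the Hoxb cluster the difference shrank. Hoxb4, known for expanding blood stem cells, had 2.79 to 11.3 CPM in duodenum (median 5.16) and 5.84 to 11.9 CPM in stomach (median 8.23), a difference of −0.67 ± 0.13. Hoxb3, which shares roles with Hoxa3 in hindbrain and pharynx, differed by −0.73 ± 0.17. Hoxb5, a gene of enteric neural crest, had 1.45 to 4.66 CPM in duodenum (median 2.36) and 1.61 to 6.44 CPM in stomach (median 2.37). The Hoxb5 ranges overlapped and its difference was −0.04. Hoxb2, a gene of the hindbrain and facial nerve, differed by −0.32 with an adjusted p of 0.052.

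In the Hoxa cluster too the widest gaps were at numbers 6 and 7. Hoxa6 had a median of 0.0926 CPM in duodenum and 0.506 CPM in stomach (−2.15 ± 0.39), and Hoxa7 a median of 0.448 CPM in duodenum and 1.5 CPM in stomach (−1.99 ± 0.28). Hoxa5, which in mice is required for lung and stomach mesenchyme to pattern the epithelium, had 1.97 to 5.50 CPM in duodenum (median 3.44) and 3.11 to 11.3 CPM in stomach (median 6.33), a difference of −0.83 ± 0.15. Its ranges overlapped. Hoxa3, a gene of thymus and parathyroid formation, differed by −0.70 ± 0.18, and Hoxa2, which sets the identity of the second branchial arch, by −0.59 ± 0.16. Hoxa4 had a median of 1.35 CPM in duodenum and 1.29 CPM in stomach, a difference of −0.06 that did not pass the test. The lone Hoxd gene tested, Hoxd8, had a median of 0.566 CPM in duodenum and 1.17 CPM in stomach and differed by −0.89 ± 0.22. Without the count filter Hoxd4 (−1.28), Hoxd9 (−1.32) and Hoxd10 also passed as lower in duodenum, the last with 0 counts there and 6 in stomach, or at least 1.92-fold lower.

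**Figure D2:**
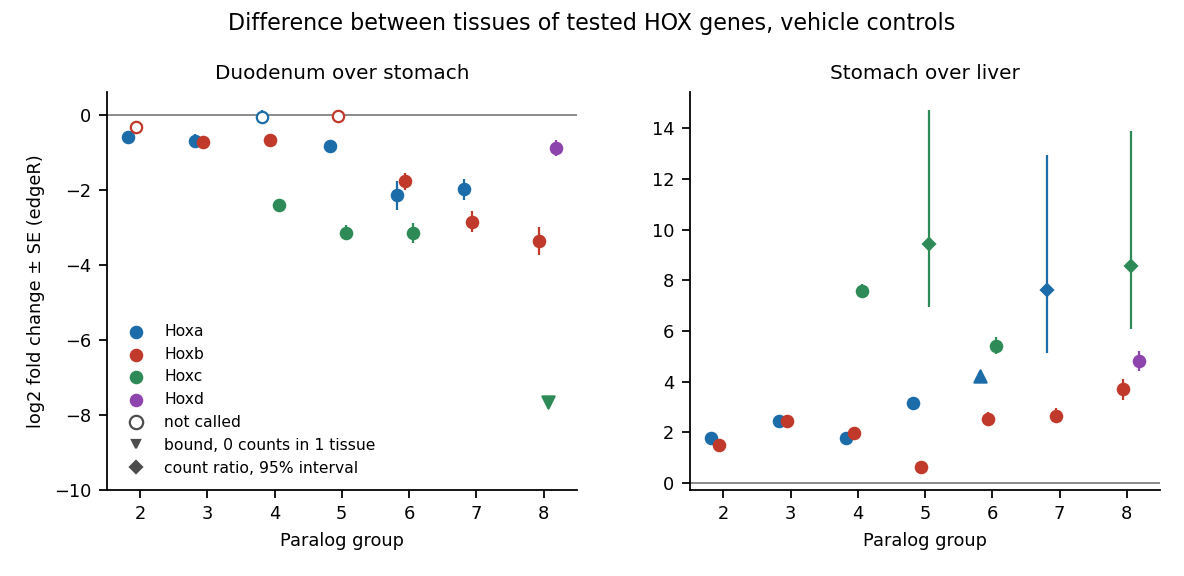
Log2 difference of each tested HOX gene in vehicle controls by paralog number, duodenum over stomach on the left and stomach over liver on the right, with bars of 1 SE; open circles did not pass, triangles are bounds where 1 tissue had no count, and diamonds are count ratios with 95% intervals where liver had 1 count. Duodenum over stomach runs from −0.04 at Hoxb5 to −3.37 at Hoxb8 among genes with counts in both, with the Hoxc genes below the others of their number.

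The amount of muscle and connective tissue differed between the pieces in the same direction. The summed smooth muscle markers were 1750 to 5260 CPM in duodenum and 6500 to 28800 CPM in stomach over all libraries, and the 10 of 10 markers tested were lower in duodenum. The summed fibroblast markers were 671 to 1990 CPM in duodenum and 3120 to 8590 CPM in stomach, with 6 of 8 markers lower. With the smooth muscle level as a covariate, 6 HOX genes were lower in duodenum and 4 were higher. The lower ones were Hoxc4 (−1.05 ± 0.27), Hoxc5 (−1.82 ± 0.36), Hoxc6 (−1.98 ± 0.47), Hoxc8, Hoxb7 (−1.39 ± 0.47) and Hoxb8 (−1.38 ± 0.62). The higher ones were Hoxb5 (1.31 ± 0.28, adjusted p = 2e-05), Hoxb3 (0.81 ± 0.27, adjusted p = 0.0075), Hoxb2 (0.62 ± 0.26, adjusted p = 0.038) and Hoxb4 (0.48 ± 0.21, adjusted p = 0.041). The fit used 1 slope per gene, shared by all 3 organs including liver. Since the marker ranges of the organs did not overlap, this fit extends the shared slope across the gap between them. The lower call of Hoxc genes, Hoxb7 and Hoxb8 held in it. Hoxa6, Hoxa7, Hoxb6 and Hoxd8 stayed negative but lost their call. The sign turned for Hoxb2 to Hoxb5, all called higher, and for Hoxa2 to Hoxa5 (0.13 to 0.61), none of them called.

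All 18 HOX genes tested were higher in stomach than in liver (16 vehicle controls each), where 43.6% of all genes were higher and 82.3% differed either way. The 18 had passed a filter over the 3 organs together, and in liver alone 5 HOX genes passed it. The others entered through gut libraries, where they are high, so this count and the median that follows are partly set by the filter. The median log2 difference was 2.91 over the HOX genes, against 0.08 over all genes. Hoxc genes were near absent from liver. Hoxc4 had 6.07 to 22.9 CPM in stomach (median 10.7) and 0 to 0.177 CPM in liver (median 0), and differed by 7.6 ± 0.26. Hoxc6 had 2.56 to 13.3 CPM in stomach and 0 to 0.394 CPM in liver (median 0.149), and differed by 5.42 ± 0.34. In both genes every stomach control lay above every liver control, a separation that 21.1% of 16992 genes showed. Hoxc5 had 1141 counts in stomach and 1 in liver, a ratio of 684 (95% interval 122 to 27000), and Hoxc8 had 638 and 1, a ratio of 382 (68.4 to 15100). Hoxa7 had 331 counts in stomach and 1 in liver (ratio 198, 35.4 to 7860), and Hoxa6, with no count in liver, was at least 18.8-fold higher in stomach. Hoxd8 differed by 4.82 ± 0.38 and Hoxb8 by 3.70 ± 0.42.

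The remaining genes differed less. Hoxa5 had 3.11 to 11.3 CPM in stomach (median 6.33) and 0.167 to 1.46 CPM in liver (median 0.693), without overlap. It differed by 3.16 ± 0.18, Hoxa2 by 1.78 ± 0.17, and Hoxa3, Hoxa4, Hoxb2, Hoxb3, Hoxb4, Hoxb6 and Hoxb7 by 1.48 to 2.66. Hoxb5 was the closest between these organs, with 1.61 to 6.44 CPM in stomach (median 2.37) and 0.143 to 3.65 CPM in liver (median 1.77). Its ranges overlapped, and it differed by 0.63 ± 0.18 with an adjusted p of 0.00097. With a batch term within each tissue, again taken at batch 3 (8 stomach and 7 liver libraries), Hoxb5 lost its call. So did Hoxa6 and Hoxc8, with 0 and 1 counts in liver. Without the count filter Hoxa10 was lower in stomach, on 1 count against 10 in liver (ratio 0.0599, 95% interval 0.00138 to 0.421), the one HOX gene called in that direction. Smooth muscle markers were higher in stomach at 10 of 10 and fibroblast markers at 6 of 8, and their part in these differences was not tested.

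Duodenum exceeded liver at 15 of the 18 HOX genes, where 47.1% of all genes were higher, and none was lower (34.2% of all genes, while 81.2% differed either way). Of the 18, 5 passed the filter in liver alone and 13 in duodenum alone, so this count too is partly set by the filter. Hoxc4 differed by 5.18 and Hoxd8 by 3.94 on the log2 scale. Hoxc6 differed by 2.26. Hoxc5 had 129 counts in duodenum and 1 in liver (ratio 80.6, 95% interval 14.2 to 3210), Hoxa7 77 and 1 (ratio 48.1, 8.38 to 1920), and Hoxa6 was at least 3.96-fold higher in duodenum. Hoxa2, Hoxa3, Hoxa4, Hoxa5, Hoxb2, Hoxb3 and Hoxb4 differed by 1.17 to 2.33, Hoxb5 by 0.59 ± 0.19 and Hoxb6 by 0.76 ± 0.29 (adjusted p = 0.012). Hoxb6 had 0.161 to 1.65 CPM in duodenum (median 0.428) and 0 to 1.06 CPM in liver (median 0.226), so its ranges overlapped. It lost its call when female control duodenum replicate 7 was left out. With a batch term within each tissue, taken at batch 3, Hoxa6, Hoxb5, Hoxb6 and Hoxc6 lost theirs. Hoxb7 (−0.19 ± 0.36) and Hoxb8 (0.33 ± 0.65) were not called, and Hoxc8 had 0 counts in duodenum and 1 in liver. Without the count filter Hoxa10 was called lower in duodenum, with 0 counts against 10 in liver, or at least 5.34-fold lower. In the same fit Hoxd3 (21 counts in duodenum and 0 in liver), Hoxd4 (29 and 3) and Hoxd9 (32 and 2) were called higher in duodenum.

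The duodenum library D_01 had a HOX profile unlike the other 46 duodenum libraries, and it was set apart because of its transcripts, so its values are a description without a test. Its HOX sum was 175 CPM, against a range of 19.9 to 56.0 CPM. Of the 36 HOX genes with a count in any duodenum library, 18 (50%) were above all 46 others in D_01, where 9.26% of 24364 genes were, and 2 (5.56%) were below all others, a share near the 7.04% of all genes. Among the 18, Hoxa6, Hoxd3 and Hoxd4 had 6, 6 and 7 counts and cannot be set above the others within counting error. None of the other libraries stood highest at more than 4 HOX genes.

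Central and posterior Hoxb and Hoxc genes were among those farthest above the other libraries. Hoxb7 had 36 CPM in D_01 (95% Poisson interval 32.9 to 39.3), against a median of 0.374 and a maximum of 0.972 CPM in the others. Hoxb9, a gene of rib patterning, had 30.0 CPM (27.2 to 33) from 425 counts, against 5 counts in the 46 others together and none in stomach. Hoxb6 had 18.9 CPM (16.7 to 21.3) against a maximum of 1.65 CPM. Hoxc6 had 14.8 CPM (12.9 to 17) against a maximum of 1.72 CPM. Hoxc8 had 13.6 CPM (11.7 to 15.6) against a maximum of 0.152 CPM. These 5 genes were thus far outside the range of the other libraries.

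Hoxb5, Hoxb8, Hoxd8, Hoxc4 and Hoxa7 had 7.91, 4.94, 4.66, 4.24 and 2.97 CPM in D_01, against maxima of 4.91, 0.316, 1.55, 3.22 and 1.12 CPM. Posterior genes, low in the other duodenum libraries, were also higher: Hoxc9 had 2.05 CPM, Hoxa9 1.84, Hoxd9 1.34, Hoxa10 0.918 and Hoxc10 0.777, against maxima of 0.519, 0.0843, 0.421, 0.107 and 0.222 CPM. Posterior genes made up 21.1% of the HOX sum in D_01, against a median of 0.713%. Hoxa6, Hoxd3 and Hoxd4 exceeded the highest other library by ratios of 1.33, 1.02 and 1.15, on 6, 6 and 7 counts. Their 95% Poisson intervals were 0.155 to 0.922, 0.155 to 0.922 and 0.199 to 1.02 CPM. These hold the maxima of the others (0.318, 0.4148 and 0.4315 CPM), so none of these genes can be set above them. Hoxa2 had 8 counts in D_01, or 0.565 CPM (95% Poisson interval 0.244 to 1.11), against 0.760 to 4.42 CPM in the others. Hoxa4 had 7 counts, or 0.494 CPM (0.199 to 1.02), against 0.689 to 3.09 CPM. Both intervals reach into the range of the others, so at these counts neither gene can be set below them. Hoxa3, Hoxa5, Hoxb2, Hoxb3, Hoxb4, Hoxc5 and Hoxd10 lay within the range of the others. The 11 HOX genes at 0, among them Hoxa13 and Hoxd13, could each reach 0.260 CPM at the upper 95% limit.

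Regional markers of this library also departed from its label. The ileum markers summed to 3810 CPM in D_01, against 87.6 to 301 CPM in the others; the ileal bile acid binding protein Fabp6 had 2540 CPM against at most 3.37. The proximal intestine markers summed to 83.8 CPM, against 343 to 1740 CPM, and Pdx1 was 0 against 25 to 50.9 CPM. Cdx2, the intestinal ParaHox factor, lay within the range of the others, at 248 CPM against 142 to 281. The smooth muscle sum was 6820 CPM in D_01, above the 1750 to 5260 CPM of the others, and the fibroblast sum was 2480 CPM against 671 to 1990. The part of muscle content in the HOX levels of D_01 was not tested. Stomach, where Hoxb9 had no count in 48 libraries, is another organ and cannot show the part of muscle in D_01.

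**Figure D3:**
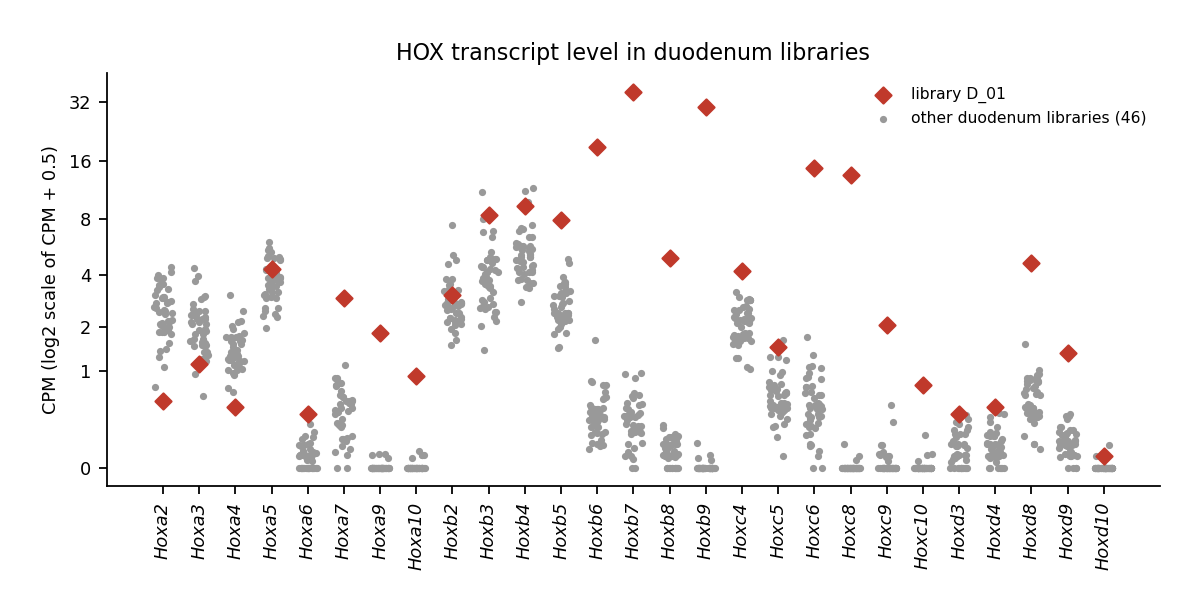
Level of each HOX gene (CPM, on a log2 scale of CPM + 0.5) in D_01 (diamonds) and in each of the other 46 duodenum libraries (points), for named genes with a count in D_01. Hoxb7, Hoxb9, Hoxb6, Hoxc6 and Hoxc8 in D_01 sit between 13.6 and 36 CPM while no other library exceeds 1.72 CPM for them.

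Within an organ the pieces varied in cell make-up, and HOX genes rose with smooth muscle markers in duodenum and in stomach, and Hoxc genes also with squamous markers in stomach. The squamous list was used in stomach alone and the enterocyte list in duodenum alone, and no difference between the organs was tested. Pearson and Spearman correlations of each gene with the mean log2 level of 3 marker lists per organ were tested by 100000 permutations. They were adjusted over all genes of the organ. The permutations pooled sexes, doses and batches without a term for them, so differences between such groups can enter a relation. A gene counted when both passed. In duodenum (46 libraries) 9 of 13 HOX genes rose with the smooth muscle list, where 17.1% of all genes did. Hoxb4 (r = 0.67, rho = 0.70), Hoxb3 (0.66 and 0.69), Hoxb5 (0.70 and 0.66) and Hoxb2 (0.59 and 0.67) had the highest rho. With the fibroblast list 8 of 13 rose (14.6% of all genes). Hoxa2, Hoxa4, Hoxa7, Hoxb4 and Hoxd8 fell as the enterocyte list rose (17.6% of all genes). All members and lists share libraries and depth, so these counts are not separate observations.

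In stomach (48 libraries) all 4 Hoxc genes tested rose with the squamous epithelium list. Hoxc4 had r = 0.75 and rho = 0.72, Hoxc5 0.75 and 0.63, Hoxc6 0.71 and 0.64, and Hoxc8 0.74 and 0.67. The adjusted permutation p was 0.0003 for r and 0.00042 for rho in each of the 4. Without the 2 libraries farthest from the median squamous level r was 0.75, 0.71, 0.69 and 0.71. In batches 1, 2 and 3 (16, 24 and 8 libraries) Hoxc4 had r of 0.74, 0.86 and 0.64, and Hoxc8 0.38, 0.87 and 0.78. Hoxa7 (r = 0.46, rho = 0.45) and Hoxb8 (r = 0.50, rho = 0.46) also passed, which made 6 of 17 HOX genes, where 7.47% of all genes passed. Hoxb4 showed no such relation, with r = −0.01 and rho = −0.08.

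The same stomach libraries gave 6 of 17 HOX genes rising with smooth muscle markers (3.94% of all genes), namely Hoxa5, Hoxa7, Hoxb5, Hoxb8, Hoxc5 and Hoxc8, and 0 of 17 with fibroblast markers (1.70%). For smooth muscle, r within batches 1, 2 and 3 was 0.01, 0.62 and 0.84 for Hoxc5 and 0.27, 0.50 and 0.73 for Hoxc8. Without the 2 libraries farthest from the median smooth muscle level, r of the 6 genes ran from 0.31 (Hoxa7) to 0.55 (Hoxb8). Hoxc genes moved together across stomach libraries, with rho of 0.76 to 0.86 over their 6 pairs, against a median rho of 0.33 for pairs within Hoxb, 0.15 within Hoxa and 0.11 between clusters. In duodenum the 3 Hoxc pairs had rho of 0.34 to 0.52. In liver 1 of 5 HOX genes, Hoxb3, rose with the stellate cell list (25.1% of all genes; r = 0.62), but in batch 3, with 7 libraries, its r was −0.50. Hoxb3 also passed with the liver fibroblast list (r = 0.35, rho = 0.36), with lower r of 0.20, 0.17 and −0.08 within batches 1, 2 and 3, and Hoxa2 with the endothelium list (r = 0.43, rho = 0.40; 0.31, 0.36 and 0.56 within batches), and 17.6% of all genes did so with each list.

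**Figure D4:**
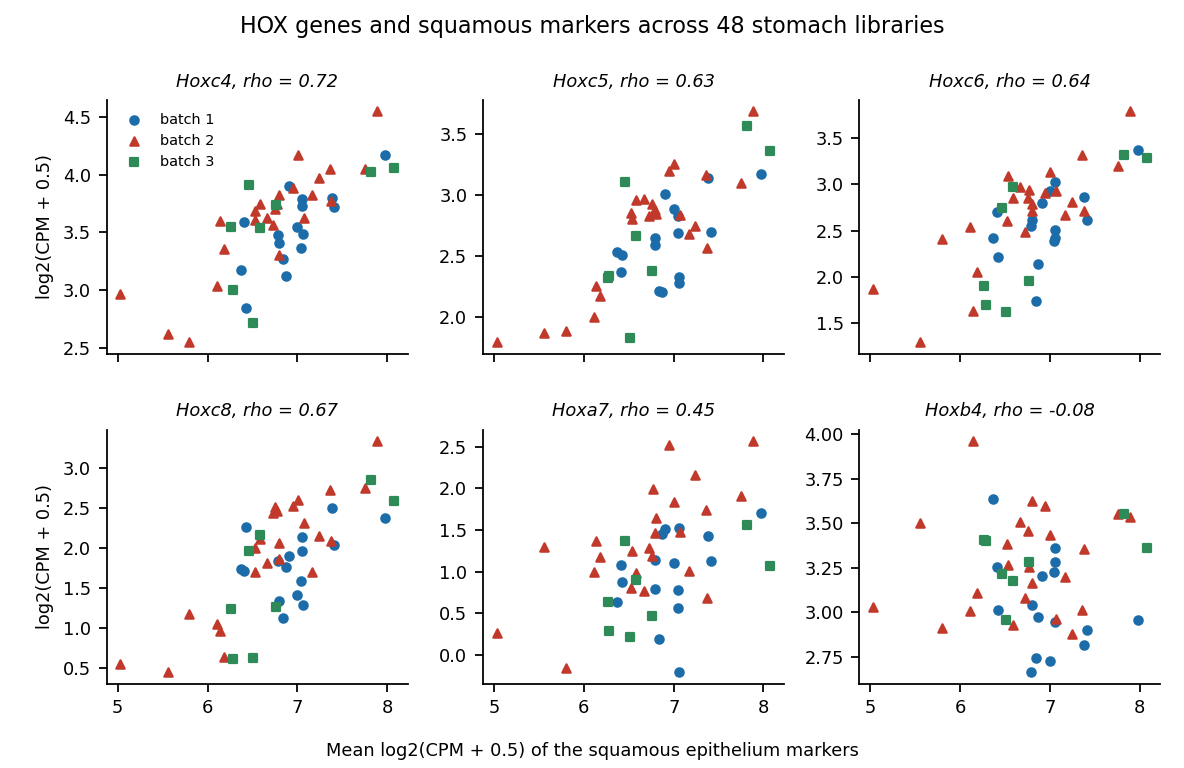
Level of Hoxc4, Hoxc5, Hoxc6, Hoxc8, Hoxa7 and Hoxb4 (log2 of CPM + 0.5) in each of the 48 stomach libraries, marked by batch, against the mean log2 level of the squamous epithelium markers. The Hoxc genes climb with the markers (r of 0.71 to 0.75), Hoxa7 less (r = 0.46) and Hoxb4 does not (r = −0.01).

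No HOX gene was called at either dose in any organ by the quasi-likelihood test. In stomach at 50 mg/kg against vehicle (16 libraries each), 0 of 17 HOX genes passed, where 4.49% of all 15140 genes did (2.65% higher, 1.84% lower). Of the 17 differences 16 were positive, with a median of 0.26 against −0.01 over all genes. HOX genes vary together across libraries, so these signs are not separate observations. An unadjusted p under 0.05 was found for 4 of the 17 and for 3610 of all 15140 genes, a similar share. The smallest p values belonged to Hoxb8 (0.66 ± 0.26, adjusted p = 0.12), Hoxa7 (0.56 ± 0.23, 0.13), Hoxb2 (0.29 ± 0.13, 0.17), Hoxb6 (0.36 ± 0.17, 0.18) and Hoxb5 (0.31 ± 0.16, 0.22). Hoxb8 had 0.105 to 1.87 CPM in vehicle controls (median 0.683), 0.261 to 1.79 at 5 mg/kg (median 0.831) and 0.280 to 2.19 at 50 mg/kg (median 1.18), so the groups overlapped almost wholly.

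At 50 against 5 mg/kg in stomach, again 0 of 17 passed (0.707% of all genes, 0.614% higher and 0.0925% lower). Of the 17, 13 were positive and 6 had an unadjusted p under 0.05, which 2342 of all 15140 genes had. Hoxa7 differed by 0.78 ± 0.24 (adjusted p = 0.086), Hoxc8 by 0.80 ± 0.25 (0.10), Hoxc5 by 0.50 ± 0.16 (0.12), Hoxb7 by 0.59 ± 0.20 (0.14) and Hoxc6 by 0.53 ± 0.19 (0.15). Hoxa7 had 0.369 to 5.41 CPM in vehicle controls (median 1.5), 0.399 to 2.83 at 5 mg/kg (median 1.29) and 1.36 to 5.25 at 50 mg/kg (median 2.21). Hoxc8 had medians of 2.96, 2.46 and 4.34 CPM at vehicle, 5 and 50 mg/kg. The squamous marker sum of the same libraries had medians of 1390, 1050 and 1470 CPM in that order. With the squamous level as a covariate, chosen after seeing the data, the 50 against 5 mg/kg differences were 0.37 for Hoxa7, 0.32 for Hoxb7, 0.25 for Hoxc8, 0.11 for Hoxc5 and 0.11 for Hoxc6. Of these 5, Hoxb7 had not passed with the squamous list (r = 0.40, rho = 0.36). The voom test with sample weights called 8 HOX genes at 50 mg/kg against vehicle and 4 at 50 against 5 mg/kg. The counts also rested on single libraries: without male control replicate 6, Hoxa7 and Hoxb5 passed at 50 mg/kg against vehicle and Hoxa7 at 50 against 5 mg/kg, and without male low-dose replicate 8, Hoxc5, Hoxc6 and Hoxc8 passed at 50 against 5 mg/kg.

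At 5 mg/kg against vehicle in stomach no gene of the table was called (0%). An unadjusted p under 0.05 was found for 909 of all 15140 genes and for 1 HOX gene, Hoxa2 (0.39 ± 0.12, adjusted p = 0.54). Hoxc8 differed by −0.41, Hoxb5 by 0.26, Hoxc5 by −0.24 and Hoxb2 by 0.19.

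In duodenum at 50 mg/kg against vehicle, 0 of 13 HOX genes passed, while 12.1% of all 15164 genes did (6.54% higher, 5.53% lower). No HOX gene had an unadjusted p under 0.05, which 4505 of the 15164 genes had. Hoxc6 had 0.329 to 1.1 CPM in vehicle controls (median 0.646), 0 to 1.72 at 5 mg/kg (median 0.340) and 0.107 to 1.06 at 50 mg/kg (median 0.451). It differed by −0.52 ± 0.31 at 50 mg/kg (adjusted p = 0.26) and by −0.56 ± 0.32 at 5 mg/kg (0.53). When D_01 was kept among the vehicle controls, Hoxc6 was called lower at 50 mg/kg (−1.39 ± 0.45, adjusted p = 0.031), so that call rested on 1 library. Hoxa4, Hoxa5, Hoxa7 and Hoxb5 differed by 0.13 to 0.23 at 50 mg/kg. At 5 mg/kg against vehicle, where 0% of all genes passed, Hoxb3 differed by −0.22, Hoxa7 by 0.41, Hoxa4 by 0.15 and Hoxb5 by 0.13. At 50 against 5 mg/kg, also with 0% of all genes called, Hoxa7 differed by −0.18 and Hoxb3, Hoxb4, Hoxa5 and Hoxb2 by 0.07 to 0.13.

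In liver 5 HOX genes were tested and none passed in the 3 dose comparisons, in which 0% of 13130 genes did. None had an unadjusted p under 0.05, which 446 of all genes had at 50 mg/kg, 272 at 5 mg/kg and 609 at 50 against 5 mg/kg. DESeq2 and voom called no HOX gene with dose in liver or duodenum. Hoxb2 had 0.530 to 2.04 CPM in vehicle controls (median 1.26), 0.427 to 2.54 at 5 mg/kg (median 0.896) and 0.582 to 1.64 at 50 mg/kg (median 1.01), and differed by −0.42 ± 0.22 at 50 mg/kg. Hoxa2 differed by 0.41 ± 0.21 at 50 mg/kg, and Hoxb3, Hoxb4 and Hoxb5 by 0.13, 0.08 and −0.02. At 5 mg/kg the 5 differences lay between −0.23 at Hoxb2 and 0.37 at Hoxb3, and at 50 against 5 mg/kg between −0.24 at Hoxb3 and 0.17 at Hoxa2, all with adjusted p of 0.99 or more.

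**Figure D5:**
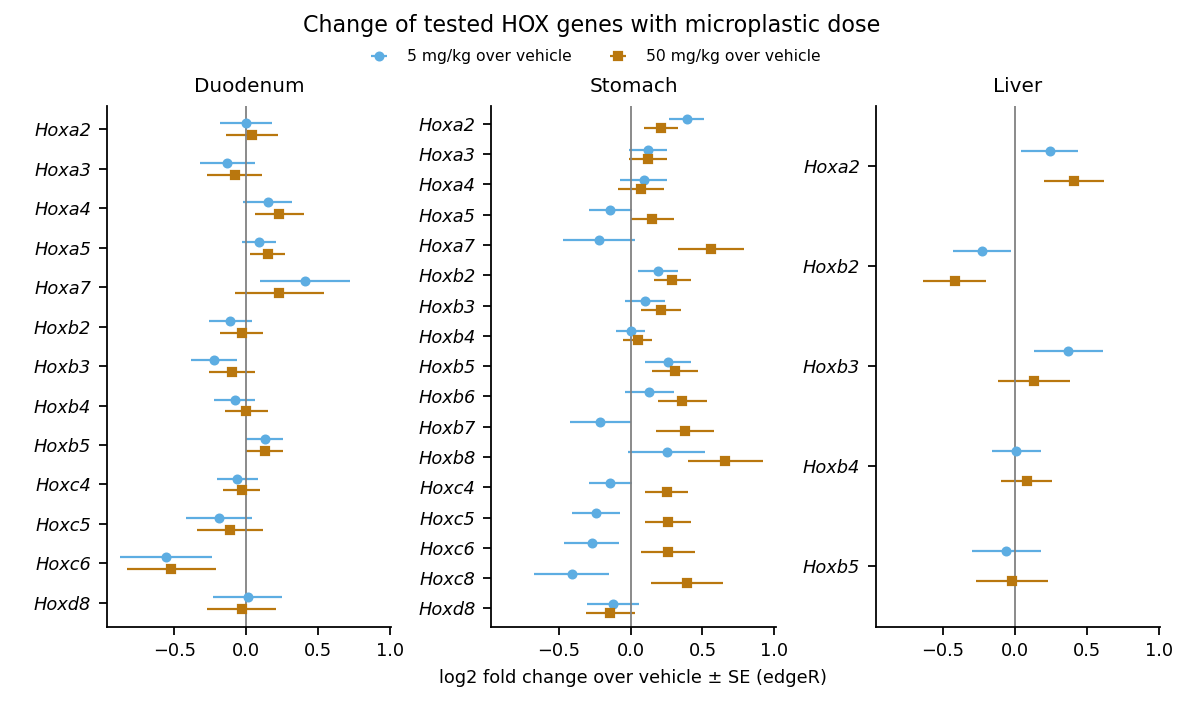
Log2 difference (± 1 SE) of each tested HOX gene at 5 mg/kg (circles) and 50 mg/kg (squares) over vehicle in duodenum, stomach and liver. In stomach at 50 mg/kg 16 of 17 differences are above 0, up to 0.66 at Hoxb8, and none passes the test.

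No HOX gene was called between female and male vehicle controls in any organ. In duodenum 0.0594% of all genes passed (0.0198% higher and 0.0396% lower in females). An unadjusted p under 0.05 was found for 850 of all 15164 genes. It was found for 3 HOX genes: Hoxc5 (0.80 ± 0.33, adjusted p = 0.75), Hoxb4 (0.52 ± 0.21, 0.74) and Hoxa5 (0.39 ± 0.18, 0.88). In stomach, where 0.172% passed (0.0793% higher, 0.0925% lower), Hoxb4 was the 1 such HOX gene (0.34 ± 0.14, adjusted p = 0.50), beside 1106 of all 15140 genes. In liver 22.8% of all genes differed by sex (10.5% higher, 12.3% lower in females), whereas 0 of the 5 HOX genes did, with differences of 0.13 to 0.60. None of the 5 had an unadjusted p under 0.05, which 4710 of all 13130 genes had. The sex difference of the dose effects was not called for a HOX gene either. In liver at 5 mg/kg 7.84% of all genes passed that test (6% with a positive and 1.84% with a negative difference); in the other 5 such tests 0% did. At an unadjusted p under 0.05 it was Hoxa7, Hoxc4, Hoxc5 and Hoxc6 at 50 mg/kg and Hoxc6 at 5 mg/kg in duodenum, Hoxb4 at 50 mg/kg in stomach, and Hoxb4 at 5 mg/kg in liver (−0.69 ± 0.34, adjusted p = 0.16). In the same order, 245 and 606 of 15164, 1187 of 15140 and 4176 of 13130 genes had such a p. DESeq2 and voom called no HOX gene in these sex comparisons either.

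The genes that act with or upstream of HOX proteins were read from 4 lists. The ParaHox genes, sisters of the HOX clusters, were tested at 3 of 6, and all 3 were higher in duodenum than in stomach. Cdx2 had 142 to 281 CPM in duodenum and 0 to 2.46 CPM in stomach, Cdx1 had 8.33 to 36.2 and 0 to 0.140 CPM, and Pdx1, a gene of duodenum and pancreas, had 25 to 50.9 and 0 to 4.33 CPM, without overlap in any of them. Among the TALE cofactors, homeodomain proteins that bind DNA with HOX proteins, 6 of 8 were lower in duodenum and 1 higher, where 36.2% of all genes were lower and 41.4% higher. Meis1 differed by −2.14 ± 0.11 and Pbx3 by −0.87 ± 0.10, and Pbx2 was higher by 0.42 ± 0.06. Of 18 Polycomb and trithorax genes, which hold HOX clusters silent or active, 5 were higher in duodenum (Ezh2 by 1.41 ± 0.08) and 5 lower (Phc1 by −1.35 ± 0.11, Cbx7 by −1.13 ± 0.10, Bmi1 by −0.52 ± 0.05), both smaller shares than among all genes. Of 12 genes of the retinoic acid axis, an inducer of anterior HOX genes, 4 were higher in duodenum (Aldh1a3 by 5.46 ± 0.14) and 7 lower (Crabp2 by −5.91 ± 0.21, Rarg by −2.40 ± 0.12, Aldh1a2 by −1.99 ± 0.13).

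Between stomach and liver, 6 of 8 TALE cofactors were higher in stomach and 2 lower, with Pbx3 at 2.81, Meis2 at 1.66 and Meis1 at 1.5, where 43.6% of all genes were higher and 38.7% lower. Polycomb and trithorax genes split 8 higher and 7 lower of 18, close to the shares of all genes, and the retinoic acid axis 5 higher and 6 lower of 12. In stomach 1 of 11 retinoic acid genes was higher at 50 mg/kg than in vehicle controls (2.65% of all genes), and Crabp2, which carries retinoic acid to its receptors, was the 1 of 11 that was higher at 50 than at 5 mg/kg (0.72 ± 0.17, adjusted p = 0.030; 0.614% of all genes). In duodenum at 50 mg/kg, where 12.1% of all genes passed, 3 of 18 Polycomb and trithorax genes did: Suz12 was higher (0.15 ± 0.05) and Ezh1 (−0.24 ± 0.07) and Kdm6b (−0.30 ± 0.10) were lower. Of 10 retinoic acid genes 1 was higher and 1, the receptor Rara, was lower (−0.26 ± 0.08).

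Transcript tables gave 36 of the HOX genes a single transcript. Hoxc6 had 2 and Hoxa10 had 3. For Hoxc6, transcript ENSRNOT00000107142 held 63.6% of the gene's estimated counts in D_01, 72.0% in the other duodenum libraries, 62.0% in stomach and 79.2% in liver.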

How the data were processed

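Gene and transcript tables of estimated counts, 1 column per library, were deposited by the authors for duodenum, stomach and liver. Per the submitters' processing notes the tools were FastQC 0.12.1, MultiQC 1.28, Trim Galore 0.6.10, cutadapt 4.9, UMI-tools 1.1.5, STAR 2.7.11b and Salmon 1.10.3, with the build mRatBN7.2. The labels describe several frozen pieces of an organ pulverised together. For testing, each value was rounded to an integer, and no library total moved by more than 0.0006403%.

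Genes were kept by filterByExpr (minimum count 10, minimum total 15), scaled by TMM and tested with edgeR 4.0.16 (quasi-likelihood, R 4.3.3), with groups of tissue, sex and dose plus batch as terms. Tissue contrasts used vehicle controls in 1 fit of all libraries without D_01, and dose and sex contrasts a fit per tissue. Calls are made under an adjusted p of 0.05 (Benjamini-Hochberg, all genes of the fit). The SE of a log2 difference was taken from its test, as the absolute difference over the square root of the quasi-likelihood F. Levels are CPM on TMM-scaled totals, and log2 levels add 0.5 CPM. Marker relations used scipy 1.17.1 and numpy 2.4.6. Intervals are 95% and cover counting error only. The method was tested on simulated counts.

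Alternatives were other scalings, no count filter, DESeq2 1.42.0, voom (limma 3.58.1), batch terms and single batches, marker covariates, a replicate block and leaving out each library, which kept the negative binomial dispersion of the full fit. No 2 libraries were identical (highest r of log2 CPM 0.991). The HOX genes, marker lists and related genes were chosen with earlier results of these data known. Named are every HOX gene called in a tissue or dose contrast, otherwise the 5 with the smallest p. A few genes of the lists are not reported here.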

Additional observations from a re-analysis of the deposited data

Results flagged for a closer look

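Summed levels of each HOX cluster were screened for a library far from the rest of its group, in 72 group and cluster tests, and 11 stood apart. For independent tests of normal values chance picks out about 1 in 20 such groups. The clusters share libraries and the sums were not put on a log scale, so 11 of 72 cannot be set against that rate. D_01, the duodenum male control replicate 1, did so for Hoxb (119 CPM), Hoxc (36.9 CPM) and Hoxd (6.99 CPM). It had been set apart beforehand because of its transcripts, so its flags are no test and cannot be set against that chance rate. Stomach male control replicate 6 did so for Hoxa (30.0 CPM), Hoxb (45.6 CPM) and Hoxc (58.3 CPM), and it is the library whose removal let Hoxa7 and Hoxb5 pass at 50 mg/kg. Hoxb stood at 36.9 CPM in duodenum female control replicate 7, the library on which the Hoxb6 call against liver rested. The others were Hoxa at 18.8 CPM in duodenum female low-dose replicate 6, Hoxc at 43.4 CPM in stomach female high-dose replicate 1, Hoxd at 1.61 CPM in stomach male control replicate 4 and Hoxd at 0.293 CPM in liver female control replicate 5. The liver value rested on 2 counts of Hoxd4.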

How the results depend on the processing

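With the smooth muscle covariate 6 HOX genes were lower and 4 higher in duodenum than in stomach. Without the count filter 18 HOX genes were lower in duodenum than in stomach. With a batch term within each tissue, taken at batch 3, 12 were. With D_01 kept 13 were, and with the controls alone 14. DESeq2 and the other scalings gave 15 or 16. With the controls alone, 9 of 9 were higher in duodenum than in liver, since fewer passed the filter; with D_01 kept 17 were, and with the batch term within tissue 11. In stomach voom called 8 at 50 mg/kg (Hoxa7, Hoxb5, Hoxb6, Hoxb7, Hoxb8, Hoxc4, Hoxc5 and Hoxc8) and 4 at 50 against 5 mg/kg (Hoxa7, Hoxc5, Hoxc6 and Hoxc8), where DESeq2 and the replicate block by title number each called 1 (Hoxa7); D_01 kept in duodenum gave 1 at 50 mg/kg. Leaving out each library gave 0 to 2 in stomach at 50 mg/kg, 0 to 3 at 50 against 5 mg/kg and 14 to 15 for duodenum over liver. The cause was not tested. Libraries with the same title number had median correlations of their deviations of 0.01 to 0.03. Those with the same library number in duodenum and stomach had 0.1 (−0.01 for other pairs), with 23 of 46 over 0.1, against 58 of 322 other pairs. For stomach and liver it was 15 of 46 against 41 of 322, and for duodenum and liver 14 of 44 against 54 of 308. The labels do not say whether a library number marks 1 animal. The main fit paired libraries by neither number, so animals shared between organs would not be accounted for in the tissue contrasts.

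These log2 differences changed sign. With the smooth muscle covariate, duodenum against stomach was 0.52 for Hoxa2, 0.33 for Hoxa3, 0.61 for Hoxa4, 0.13 for Hoxa5, 0.62 for Hoxb2, 0.81 for Hoxb3, 0.48 for Hoxb4 and 1.31 for Hoxb5; duodenum at 50 against 5 mg/kg was −0.03 for Hoxa5 and Hoxb4 and −0.04 for Hoxb2 and Hoxb3; liver at 50 against 5 mg/kg was 0 for Hoxb4 and −0.02 for Hoxb5. Hoxb5 in duodenum against stomach was 0.13 with the batch term within tissue, taken at batch 3 (Hoxb2 0.07), and 0.15 with D_01. It was 0.01 and 0.06 with the replicate block by library and by title number, and 0.04 with voom. With D_01 kept, duodenum against liver was 1.82 for Hoxb7, duodenum at 50 mg/kg −0.12 for Hoxa7 and −0.07 for Hoxb5, and at 5 mg/kg −0.08 for Hoxb5. Voom gave −0.37 for Hoxb8 in duodenum against liver. For liver at 5 mg/kg, Hoxb4 was −0.01 with the replicate block, −0.08 with voom and −0.24 in batch 1, Hoxa2 −0.02 with voom and −0.48 in batch 1, and Hoxb5 0.41 in batch 2 and 0.04 without batch 3. For liver at 50 mg/kg, Hoxb5 was 0.53 in batch 2, 0.18 without batch 3 and 0.03 with no batch term. For liver at 50 against 5 mg/kg, batch 1 gave 0.37 for Hoxb2 and −0.29 for Hoxb5, batch 2 −0.25 for Hoxa2, 0.09 for Hoxb2 and −0.04 for Hoxb4, and 0.19 came for Hoxb2 without batch 3. In duodenum, batch 1 gave −0.03 for Hoxa4 at 5 mg/kg and −0.08 for Hoxa7 at 50 mg/kg, and batch 2 −0.04 for Hoxa5, −0.10 for Hoxb2 and −0.16 for Hoxb4 at 50 against 5 mg/kg. In stomach at 5 mg/kg, Hoxc8 was 0.25 in batch 1, and Hoxc5 and Hoxc8 were 0.08 and 0.06 with the squamous covariate. Leaving out single libraries, the range was −0.11 to 0.01 for Hoxa4 and −0.11 to 0.12 for Hoxb5 in duodenum against stomach; in liver, Hoxb4 ranged from −0.08 to 0.07 at 5 mg/kg, −0.02 to 0.12 at 50 mg/kg and −0.03 to 0.16 at 50 against 5 mg/kg, and Hoxb5 from −0.15 to 0.05, −0.12 to 0.11 and −0.05 to 0.15 in the same order. The median duodenum against stomach difference of all genes was 0.08 with TMM, −0.03 with DESeq2 size factors and −0.07 with upper quartile scaling, and stomach against liver 0.08, 0.20 and 0.35. Depth limits the genes near 0, above all posterior HOX genes.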
